A study of Mus musculus with 10 samples.

Results

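The genes described here carry the insulin signal from its receptor at the cell surface to the FoxO transcription factors in the nucleus: the receptor Insr, the adaptors Irs1 and Irs2, the PI3-kinase subunits Pik3r1 and Pik3ca, the kinases Akt1 and Akt2, and the transcription factors Foxo1 and Foxo3. They were taken by gene symbol, and all 9 were on the array. Pik3r1, Pik3ca and Foxo3 had a pair of probes and the other 6 genes had 1 each, which gave 12 probes of the 23512 measured, and 9 of 19861 named genes. RNA came from pancreatic islets of C57BLKS/J mice aged 9 weeks, either db/db, homozygous for the db mutation of the leptin receptor, or db/+, the lean heterozygous controls. Each group had 5 biological replicates, each on an array of 2 colours with the replicate's islet RNA in Cy5 and a reference in Cy3, and by the labels that reference was control islet RNA, db/+ and of the same age. By the labels, db/db mice of this age are severely hyperglycaemic, with insulin only modestly raised after a decline from an earlier peak.

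Insulin that binds its receptor switches on the receptor's tyrosine kinase, which phosphorylates the Irs adaptors. These recruit PI3-kinase to the membrane, where it makes the lipid that brings Akt to be activated, and Akt phosphorylates FoxO factors so that they leave the nucleus. In beta cells Irs2 is the adaptor most tied to growth and survival, Foxo1 is a nuclear sensor of low insulin signalling and metabolic stress, and the cAMP and CREB pathway is a known inducer of Irs2.

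Promoter sequences are shown for Irs2, which has a known insulin response element in liver, for its relative Irs1, and for Akt1 and Foxo3, the genes that passed the test below. RefSeq entries of build GRCm38.p6 were found for 8 of the 9 genes, all but Insr, and gave 13 windows of 300 bases, from 250 before to 50 after a transcript start. All 4 windows lie on the minus strand and are written 5′ to 3′. Capitals mark letters of the searched motifs on either strand.
Irs1, chr1:82291390-82291689: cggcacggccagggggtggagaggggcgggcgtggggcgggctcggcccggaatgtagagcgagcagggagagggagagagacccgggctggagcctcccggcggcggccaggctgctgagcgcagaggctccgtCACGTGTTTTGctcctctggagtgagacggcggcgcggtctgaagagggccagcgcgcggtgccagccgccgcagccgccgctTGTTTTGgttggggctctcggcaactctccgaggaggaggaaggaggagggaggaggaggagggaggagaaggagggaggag
Irs2, chr8:11008880-11009179: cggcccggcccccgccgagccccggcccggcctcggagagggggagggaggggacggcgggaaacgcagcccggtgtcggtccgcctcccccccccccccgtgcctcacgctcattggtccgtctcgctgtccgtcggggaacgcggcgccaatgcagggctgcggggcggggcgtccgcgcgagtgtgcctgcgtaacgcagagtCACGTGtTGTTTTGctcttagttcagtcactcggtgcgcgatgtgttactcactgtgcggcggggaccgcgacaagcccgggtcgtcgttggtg
Akt1, chr12:112674835-112675134: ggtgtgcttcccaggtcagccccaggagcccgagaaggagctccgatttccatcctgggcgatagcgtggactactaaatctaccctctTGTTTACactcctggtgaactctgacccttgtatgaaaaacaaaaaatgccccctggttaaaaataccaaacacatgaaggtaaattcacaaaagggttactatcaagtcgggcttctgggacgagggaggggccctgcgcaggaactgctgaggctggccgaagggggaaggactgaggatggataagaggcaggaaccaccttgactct
Foxo3, chr10:42276646-42276945: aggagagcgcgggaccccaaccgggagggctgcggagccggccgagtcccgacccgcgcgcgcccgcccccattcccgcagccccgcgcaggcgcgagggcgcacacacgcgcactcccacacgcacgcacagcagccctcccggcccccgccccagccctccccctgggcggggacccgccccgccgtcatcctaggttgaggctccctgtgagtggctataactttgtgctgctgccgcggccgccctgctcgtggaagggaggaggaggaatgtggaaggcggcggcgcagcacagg
The insulin response element CAAAACA, to which FoxO factors bind in known target genes, was found as its reverse complement TGTTTTG at 111 to 105 and again at 32 to 26 bases before the Irs1 start, and at 37 to 31 bases before the Irs2 start. An E-box, CACGTG, lay beside it in both genes, at 115 to 110 bases before the start in Irs1, where the motifs share 2 bases, and at 44 to 39 bases before it in Irs2. The FoxO core GTAAACA was found in 1 of the 13 windows, as TGTTTAC at 161 to 155 bases before this Akt1 start. Akt1 had another window, not shown, which held none of the searched motifs. None of the 13 windows held the cAMP response element TGACGTCA. Of 32851 windows of the same length in the mouse table, 6.28% held CAAAACA, 7.15% CACGTG, 3.65% GTAAACA and 1.79% TGACGTCA on either strand. These matches describe letters in a window and say nothing of binding in these islets.

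Akt1 and Foxo3 fell in db/db islets relative to db/+ islets, and the other 7 genes did not pass the test. Of the 12 probes, 3 passed, 1 of Akt1 and both of Foxo3, all lower in db/db (limma, adjusted p under 0.05 over all probes tested). That is 25% of the probes, against 33% of 23138 probes tested on the whole array, of which 17.1% were lower and 15.9% higher in db/db. By value alone 10 of the 12 probes were lower and 2 were higher, with a median log2 difference of -0.25, against -0.02 over all probes tested. Both Pik3r1 probes and the Akt2 probe count among the lower ones, with 8, 9 and 7 of their 10 ratios at exactly 0. Their direction therefore tells nothing. The share of all probes lower by value was not counted, so these numbers show no trend of the pathway. All 12 probes had values on all 10 arrays. As these are RNA measurements of whole islets, fewer cells of a type and less RNA per cell cannot be told apart for any gene below.

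Values below are log2 ratios of the islet signal over the reference of the same array, given by replicate from 1 to 5, and a difference is the db/db mean minus the db/+ mean with its standard error. The reference signal of the 12 probes did not differ detectably between the arrays of the groups (lowest limma adjusted p = 0.947, 0 probes with an unadjusted p under 0.05), and 0.0173% of all probes differed there.

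**Figure D1:**
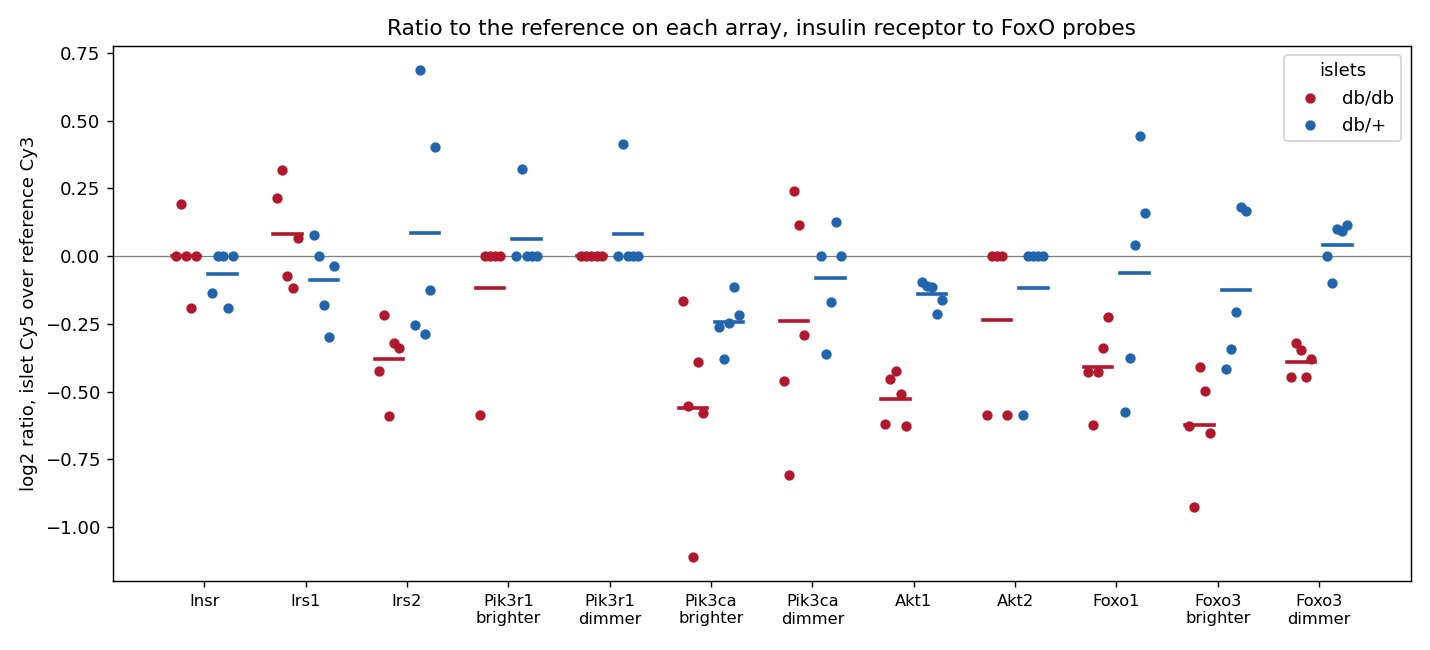
Log2 ratio of the islet Cy5 signal over the reference Cy3 signal for each of the 12 probes. Points are arrays (5 db/db in red, left, and 5 db/+ in blue, right), short lines are group means. The groups are separated for Akt1 and for the dimmer Foxo3 probe, the db/+ arrays are spread widely for Irs2 and Foxo1, and many points of the Insr, Pik3r1 and Akt2 probes lie exactly at 0.

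The receptor probe was near the rounding limit of the files. Insr gave log2 ratios of 0, 0.19, 0, -0.19 and 0 in db/db islets, against -0.14, 0, 0, -0.19 and 0 in db/+ islets. Thus 6 of its 10 ratios were exactly 0, and the groups overlapped throughout. Its mean reference intensity was 0.092 units, where 1 rounding step of 0.01 units is worth 0.15 on the log2 scale. The log2 difference was 0.07 ± 0.07 (SE), with a 95% confidence interval of -0.10 to 0.23 (limma adjusted p = 0.514). With ratios this coarse, a change of Insr within that interval was not detectable.

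The adaptors Irs1 and Irs2, which dock PI3-kinase to the receptor, were well measured, and neither passed the test. Irs1 gave log2 ratios of 0.21, 0.32, -0.07, -0.12 and 0.07 in db/db islets, against 0.08, 0, -0.18, -0.30 and -0.04 in db/+ islets. The db/db values lay higher by 0.17 ± 0.10 (SE, 95% confidence interval -0.06 to 0.40, limma adjusted p = 0.244), and the groups overlapped.

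Irs2 had a mean reference intensity of 6.97 units. Its log2 ratios were -0.42, -0.22, -0.59, -0.32 and -0.34 in db/db islets, against -0.25, 0.69, -0.29, -0.12 and 0.40 in db/+ islets. All 5 db/db arrays lay under the reference, while the db/+ arrays were split, with replicates 2 and 5 well above it and replicates 1, 3 and 4 a little below. Of the db/+ arrays, replicates 1 and 3 lay within the range of the db/db arrays and the other 3 above it. The spread was 0.44 in db/+ islets, which is 3.12 times that in db/db islets (SD of the log2 ratio 0.14, n = 5 each). The islet signal itself was 5.29, 5.82, 4.31, 5.78 and 5.61 units in db/db islets, against 6.44, 12.1, 5.72, 5.44 and 9.21 units in db/+ islets. There too db/+ replicates 2 and 5 stood highest, but replicates 3 and 4 lay within the db/db range and replicate 1 above it. The log2 difference of Irs2 was -0.46 ± 0.19 (SE, 95% confidence interval -0.89 to -0.03), at an adjusted p of 0.0953 by limma and an unadjusted exact permutation p of 0.0317. It passed only when probes below the median intensity were left out of the fit (adjusted p = 0.0414).

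The PI3-kinase probes did not pass the test either. Pik3r1, the regulatory subunit that binds the adaptors, had 2 probes at mean reference intensities of 0.029 and 0.026 units, below the lower quartile of all probes (0.049 units). At that level 1 rounding step is worth 0.43 and 0.47 on the log2 scale, and 8 and 9 of their 10 ratios were exactly 0, so no change of Pik3r1 could be measured. Their log2 differences were -0.18 ± 0.13 and -0.08 ± 0.08 (SE, limma adjusted p = 0.309 and 0.464).

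Pik3ca, the catalytic subunit, had a brighter probe at 1.24 units, with log2 ratios of -0.17, -0.55, -1.11, -0.39 and -0.58 in db/db islets, against -0.26, -0.38, -0.25, -0.12 and -0.22 in db/+ islets. Here the spread ran the other way from Irs2, as the db/db arrays were scattered (SD 0.35, n = 5) and the db/+ arrays were close together (SD 0.095, n = 5). Replicates 2, 3, 4 and 5 of db/db lay below every db/+ array, and replicate 1 lay above all of them but replicate 4. The log2 difference was -0.32 ± 0.15 (SE, 95% confidence interval -0.66 to 0.03, limma adjusted p = 0.148). The dimmer Pik3ca probe, at 0.104 units, ran from -0.81 to 0.24 in db/db islets and from -0.36 to 0.13 in db/+ islets, with a log2 difference of -0.16 ± 0.20 (SE, limma adjusted p = 0.567).

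Akt1, a kinase that passes the signal on to FoxO factors, fell 1.31-fold in db/db islets. Its log2 ratios were -0.62, -0.45, -0.42, -0.51 and -0.63 in db/db islets, against -0.09, -0.11, -0.12, -0.21 and -0.16 in db/+ islets. All 5 db/db arrays lay below all 5 db/+ arrays, as they did for 12.4% of 21954 probes with 10 values, and the values within each group were close. The log2 difference was -0.39 ± 0.05 (SE, 95% confidence interval -0.50 to -0.28, limma adjusted p = 0.000299), with an exact permutation p of 0.00794, the smallest that 5 arrays against 5 can give. The islet signal averaged 1.82 ± 0.12 units in db/db islets and 2.49 ± 0.18 units in db/+ islets (SD, n = 5 each), while the reference averaged 2.62 ± 0.16 units on the db/db arrays and 2.74 ± 0.12 units on the db/+ arrays. In the authors' deposited table, which gives a p-value for the channels of each array, Akt1 was under 0.05 on 5 db/db arrays and on 0 db/+ arrays. That p-value sets islet RNA against the reference, not db/db against db/+. By the same count the dimmer Foxo3 probe had 2 and 0 arrays and the brighter one 5 and 1. Without a call between the groups, the brighter Pik3ca probe had 4 and 0 and Foxo1 had 4 and 3. After quantile normalization of the ratios the difference shrank to -0.14 and the call was lost (adjusted p = 0.0643). Akt2, the other Akt kinase of the set, was measured at 0.028 units, with 7 of 10 ratios at 0 and each other ratio 1 rounding step lower, so no change of Akt2 could be measured (log2 difference -0.12 ± 0.17 SE, limma adjusted p = 0.641).

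**Figure D2:**
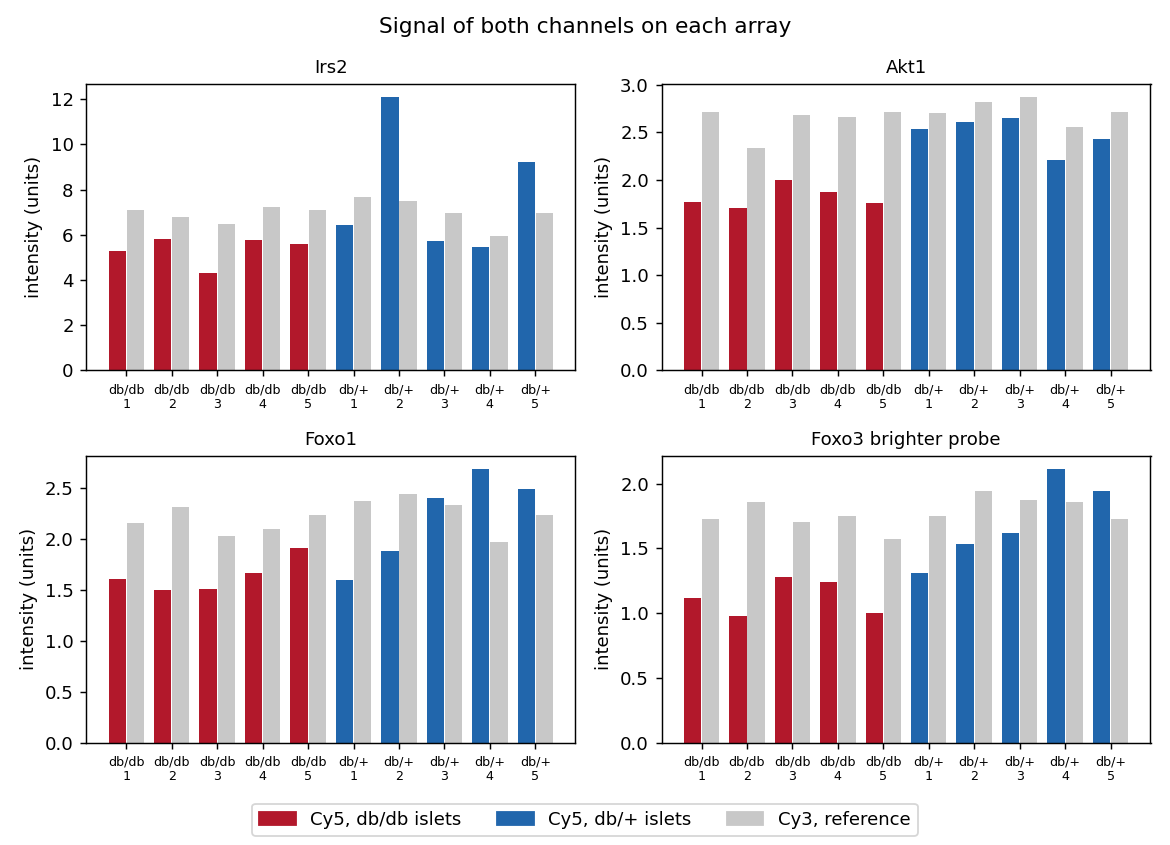
Intensity in arbitrary units on each array for Irs2, Akt1, Foxo1 and the brighter Foxo3 probe. Coloured bars are the islet Cy5 signal (db/db in red, db/+ in blue) and grey bars the reference Cy3 signal of the same array. The grey bars are similar across arrays, all red Akt1 bars are lower than all blue ones, and the Irs2 signal is highest on db/+ replicates 2 and 5.

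Foxo1 did not pass the test, and its control arrays lay far apart. Its log2 ratios were -0.43, -0.62, -0.43, -0.34 and -0.22 in db/db islets, against -0.58, -0.38, 0.04, 0.44 and 0.16 in db/+ islets. The db/db arrays were all below the reference and close together (SD 0.15), whereas db/+ replicates 1 and 2 lay among them and replicates 3, 4 and 5 above them all (SD 0.41, n = 5 each). The log2 difference was -0.35 ± 0.18 (SE, 95% confidence interval -0.76 to 0.07, limma adjusted p = 0.185, unadjusted exact permutation p = 0.111). Without db/+ replicate 1 it was -0.47 and passed (adjusted p = 0.0483).

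Foxo3, the other FoxO factor of the set, was lower in db/db islets on both of its probes, whose positions in the gene are not given. The dimmer probe gave log2 ratios of -0.45, -0.32, -0.35, -0.45 and -0.38 in db/db islets, against 0, -0.10, 0.10, 0.09 and 0.12 in db/+ islets. These groups were separated, with a 1.35-fold fall (log2 difference -0.43 ± 0.05 SE, 95% confidence interval -0.54 to -0.32, limma adjusted p = 0.000172, exact permutation p = 0.00794). Its reference intensity was 0.142 units, so that 1 rounding step is worth 0.098, and the islet signal was 0.110 ± 0.0071 units in db/db islets and 0.144 ± 0.011 units in db/+ islets (SD, n = 5 each).

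The brighter Foxo3 probe, at 1.78 units, gave log2 ratios of -0.63, -0.92, -0.41, -0.50 and -0.65 in db/db islets, against -0.42, -0.34, -0.21, 0.18 and 0.17 in db/+ islets. All db/db arrays but replicate 3 lay below every db/+ array, and db/+ replicates 4 and 5 stood above the other controls. It fell 1.41-fold (log2 difference -0.50 ± 0.14 SE, 95% confidence interval -0.82 to -0.17, limma adjusted p = 0.0250, exact permutation p = 0.0159). Leaving out db/db replicate 2 or 5 ended this call (adjusted p = 0.0536 and 0.0534), as did leaving out db/+ replicate 4 or 5 (0.0562 and 0.0587) and quantile normalization (-0.21, adjusted p = 0.538).

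**Figure D3:**
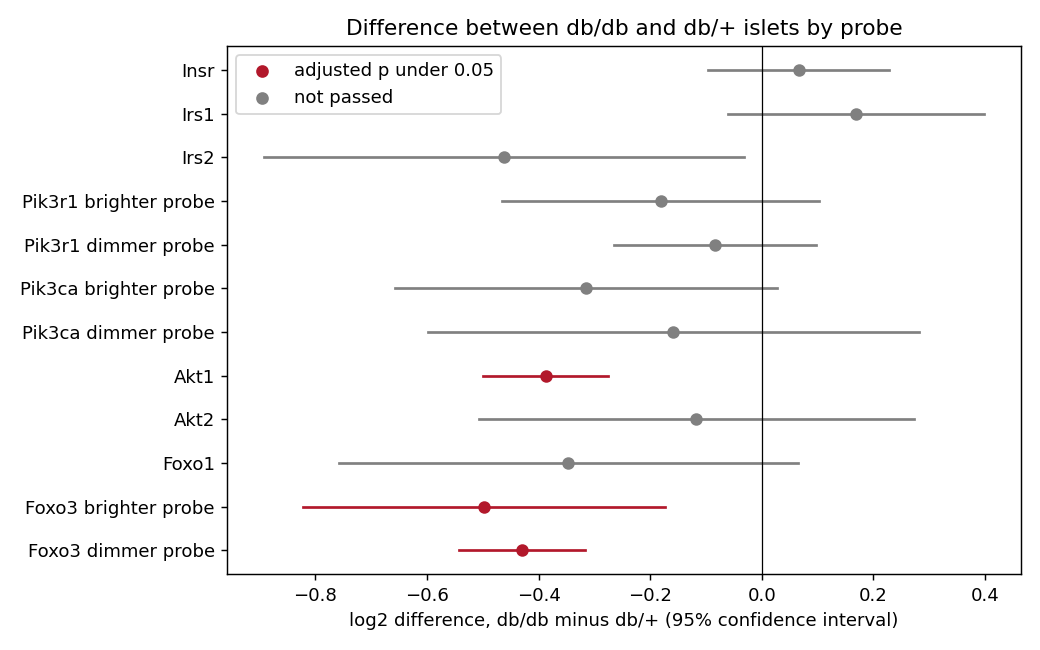
Log2 difference between db/db and db/+ islets for each of the 12 probes, with 95% confidence intervals. Red marks an adjusted p under 0.05 over all probes. Akt1 and both Foxo3 probes lie below 0, and the intervals of the other probes, except that of Irs2, reach 0.

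Markers of stellate cells and fibroblasts were higher in db/db islets and varied among the control arrays too. Of 9 such markers tested, 8 rose and 0 fell, with a median log2 difference of 1.40, and Acta2 gave 0.55 (limma adjusted p = 0.136). Their summed islet signal ran from 3.75 to 7.18 units in db/db islets and from 1.38 to 2.62 units in db/+ islets, and no marker was at 0. The mean log2 ratio of these markers was 1.57, 1.96, 1.38, 1.07 and 1.41 in db/db islets, against 0.48, 0.07, -0.08, -0.52 and -0.25 in db/+ islets. Among db/+ arrays, the order of Foxo1 and of the brighter Foxo3 probe was the exact reverse of that order: replicate 1 had the highest marker level and the lowest ratios of both, and replicate 4 the lowest marker level and the highest ratios. Akt1 ran the opposite way among the same 5 arrays, lowest on replicate 4 and highest on replicate 1. In db/db islets, replicate 2 had the highest marker level and the lowest ratios of Foxo1 and the brighter Foxo3 probe, but the other db/db arrays did not follow the reverse order. Akt1 did not repeat its db/+ order there, being lowest on replicate 5 and highest on replicate 3. The dimmer Foxo3 probe followed another order among db/+ arrays, with replicate 2 lowest and replicate 5 highest.

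With the marker mean as a covariate, an alternative added after the data were seen, Akt1 kept its call (log2 difference -0.52, adjusted p = 0.0434). The brighter Foxo3 probe turned to 0.44 (adjusted p = 0.201), the dimmer one gave -0.38 (adjusted p = 0.127), and Foxo1 gave 0.82 (adjusted p = 0.0970). Since the marker levels of the groups do not overlap, the part of genotype and that of these cells cannot be told apart in such a fit. Of 11 acinar cell markers on the array 6 could be tested, and 1 was lower in db/db islets (Amy2b) and 0 higher. Of all genes on the array 17.9% were lower. The mean log2 ratio of the acinar markers was -0.64, -0.0039, -0.72, -0.68 and -0.84 in db/db islets, against 0.06, -0.14, -0.21, -0.14 and 0.32 in db/+ islets. The groups overlapped through db/db replicate 2. The summed islet signal of these markers was 10.13 to 22.31 units in db/db islets and 22 to 32.04 units in db/+ islets. With the mean of the acinar markers as covariate, Akt1 (adjusted p = 0.0148) and the dimmer Foxo3 probe (0.00943) kept their calls, and the brighter Foxo3 probe missed the threshold (-0.61, adjusted p = 0.0859).

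**Figure D4:**
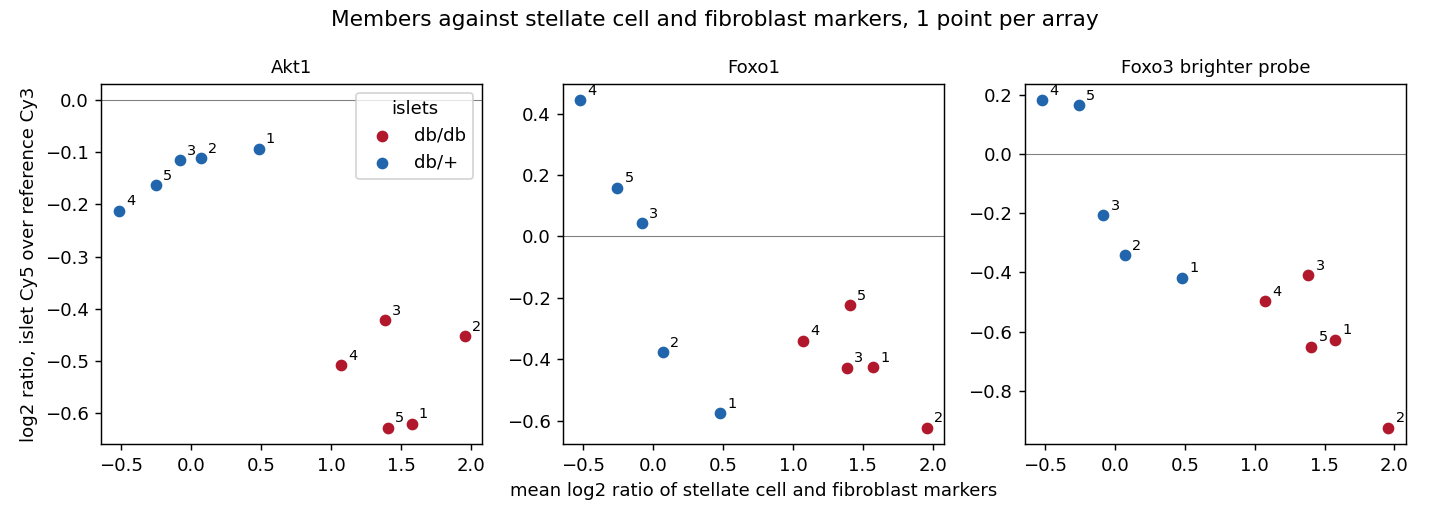
Log2 ratio of Akt1, Foxo1 and the brighter Foxo3 probe on each array against the mean log2 ratio of the 9 stellate cell and fibroblast markers of that array (db/db in red, db/+ in blue, replicate numbers beside the points). All db/db arrays lie at 1.07 or more on the horizontal axis and all db/+ arrays at 0.48 or less. Among db/+ arrays Foxo1 and Foxo3 are lower, and Akt1 higher, toward the right.

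For Foxo3 and Irs2, the genes with the largest differences on their brightest probes, the most alike patterns were sought among 10939 brighter probes with 10 values. Closest to the brighter Foxo3 probe were Aldh5a1 (Pearson r = 0.990 over the 10 arrays, 0.977 once group means were taken off), Camsap2 (0.987 and 0.971) and Pdss1 (0.981 and 0.969). For Irs2 they were Leng9 (0.926 and 0.889), Depp1 (0.910 and 0.849) and Igsf21 (0.908 and 0.904). These are descriptions over 10 arrays that share a reference, picked as the highest of many.

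Other genes of the pathway were described from 9 lists with 149 tested genes, each by its probe of brightest reference signal. Of these, 17 were higher (11.4%) and 44 lower (29.5%) in db/db islets by limma, against 16.9% and 17.9% of 19567 genes on the array (34.8% called in all), and their median log2 difference was -0.09. After quantile normalization the counts were 7 higher and 21 lower, and with the stellate marker covariate 12 higher and 5 lower. Calls fell over the whole array too, from 3678 higher and 3946 lower probes in the main fit. They numbered 1830 and 1662 after quantile normalization and 1034 and 1047 with the stellate covariate.

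At the receptor, 1 of 3 related genes was lower and 0 higher. Insrr, an orphan receptor of the insulin receptor family, fell 3.26-fold (log2 difference -1.70 ± 0.11 SE, limma adjusted p = 5.25e-06). Its log2 ratios were -1.93, -1.74, -1.62, -1.80 and -1.95 in db/db islets, against 0.17, -0.13, 0.01, -0.40 and -0.15 in db/+ islets, which left a wide gap between the groups. Igf1r, the receptor for insulin-like growth factor, gave -0.53 ± 0.21 SE on its brighter probe (limma adjusted p = 0.0876) and passed without db/+ replicate 1 (0.0346) or without probes below the median intensity (0.0359), while its other probe gave a difference of 0.

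Among 14 further adaptors, 1 was higher and 6 lower. Dok1, a docking protein that dampens tyrosine kinase signals, rose 1.61-fold (limma adjusted p = 1.64e-05), and the SH2 and SH3 adaptor Crkl fell 1.23-fold (limma adjusted p = 0.00546), with -0.42 (adjusted p = 0.000453) and -0.12 (0.593) on its other probes. The Ras exchange factor Sos1 (log2 difference -0.31, limma adjusted p = 0.0155) and the adaptor Irs3 (-0.48, 0.0165) passed too, at reference intensities of 0.052 and 0.034 units, where folds are coarse. With both channels floored at 0.05 units neither passed, at -0.0971 for Sos1 (adjusted p = 0.36) and 0 for Irs3. Both calls were also lost after quantile normalization (adjusted p = 0.0609 for Sos1 and 0.109 for Irs3), with the acinar or the stellate marker covariate, and in the exact permutation test per probe (adjusted p = 0.109 for each). PI3-kinase subunits and partners had 3 of 14 higher and 0 lower. The PI3-kinase adaptor Pik3ap1 rose 1.85-fold (limma adjusted p = 0.00224) and the regulatory subunit Pik3r3 1.28-fold (0.0122). Quantile normalization ended both calls, with log2 differences of 0.557 for Pik3ap1 (limma adjusted p = 0.155) and 0.0928 for Pik3r3 (0.58). The stellate covariate ended both too, and the acinar covariate ended that of Pik3r3 (limma adjusted p = 0.149). Pik3ip1, an inhibitor of PI3-kinase, rose by a log2 difference of 0.23 (limma adjusted p = 0.0466) and kept its call only without db/db replicate 2 or 4, and in no other fit without a single array. The catalytic subunit Pik3cb gave 0.07 ± 0.07 SE and the regulatory subunit Pik3r2 0.14 ± 0.09 SE, and neither passed.

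Among 11 tested genes of kinases that act on or beside Akt, 1 was higher and 3 lower. Rictor, the defining subunit of the complex that phosphorylates Akt (mTORC2), fell 1.56-fold (limma adjusted p = 0.00177), whereas Mapkap1, another subunit of it, rose by a log2 difference of 0.51 (0.0383). Pdpk1, a kinase that phosphorylates Akt, fell by 0.62 ± 0.20 SE on the log2 scale, on a probe of 0.109 units (limma adjusted p = 0.0425). The call of Pdpk1 was lost without db/db replicate 1, 2 or 5 or db/+ replicate 3, 4 or 5, and that of Mapkap1 without db/db replicate 1, 2 or 5 or db/+ replicate 1, 3 or 4. The other Mapkap1 probe gave 0.09 (adjusted p = 0.586).

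Brakes on the pathway had 3 of 20 tested genes higher and 8 lower. Phlpp1, a phosphatase of Akt, fell 1.53-fold (limma adjusted p = 0.000173) and Ptpn2, a tyrosine phosphatase that acts on the insulin receptor, 3.34-fold (0.000327). Enpp1, a membrane protein that inhibits the receptor, rose 2.09-fold (limma adjusted p = 1.96e-05), and its other probe was higher too (0.75, adjusted p = 4.54e-05).

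Downstream of Akt, 1 of 16 substrates and mTORC1 genes was higher and 4 lower. The fructose bisphosphate kinase and phosphatase Pfkfb2 fell 2.32-fold (limma adjusted p = 5.63e-05), the phosphodiesterase Pde3b 1.18-fold (0.00364, with 1 of its 3 other probes called) and the mTORC1 activator Rheb 1.33-fold (0.0258). Bad, a cell death protein that Akt phosphorylates, rose 1.23-fold (0.0259). Quantile normalization ended the calls of Pde3b (log2 difference -0.084, limma adjusted p = 0.436), Rheb (-0.387, 0.0592) and Bad (0.188, 0.334). The call of Rheb was lost without db/db replicate 1, 2 or 5 or db/+ replicate 3, and that of Bad without db/db replicate 3, 4 or 5 or db/+ replicate 4 or 5. Of 21 further FoxO factors and regulators, 2 were higher and 6 lower. Sirt1, a deacetylase of FoxO factors, fell 1.93-fold (limma adjusted p = 9.73e-05). Of the Ywha proteins, which hold phosphorylated FoxO in the cytosol, Ywhaq fell 1.5-fold (3.17e-05) and Ywhaz 1.57-fold (0.000882). The other tested Ywha genes did not pass, with log2 differences from -0.09 to 0.07. The cell cycle kinase Cdk2 rose 1.25-fold (0.00395). Its call was lost after quantile normalization (log2 difference 0.116, limma adjusted p = 0.449) and with the acinar covariate (0.281, 0.0814). The FoxO factors Foxo4 (log2 difference 0.48 ± 0.20 SE, limma adjusted p = 0.0966) and Foxo6 (-0.09 ± 0.05 SE, 0.176) did not pass. Foxo4 passed without db/+ replicate 1 (0.0191) or without probes below the median intensity (0.0417), and Foxo6 passed without db/db replicate 2 (-0.121, adjusted p = 0.0416).

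FoxO target genes known from other tissues went both ways, with 4 of 31 tested higher and 11 lower. Mttp, which loads lipid onto lipoproteins, rose 3.27-fold (log2 difference 1.71 ± 0.10 SE, limma adjusted p = 3.20e-06), the death ligand Tnfsf10 2.02-fold from a dim probe (0.041 units, 5.29e-05) and catalase, Cat, 1.52-fold (0.000309). Cited2, a transcriptional coregulator, fell 1.65-fold (limma adjusted p = 7.72e-05). Of 19 cAMP and CREB genes, 2 were higher and 5 lower. The CREB family factor Crem fell 2.00-fold (limma adjusted p = 0.00145), the CREB coactivator kinase Sik2 1.65-fold (0.000553) and the protein kinase A subunit Prkar1a 1.34-fold (0.00114). The adenylyl cyclase Adcy6 rose 1.20-fold (0.00261). Quantile normalization ended the calls of Crem (limma adjusted p = 0.0558), Sik2 (0.0574) and Adcy6 (0.0642). The acinar covariate ended those of Crem (limma adjusted p = 0.0541) and Adcy6 (0.0716).

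**Figure D5:**
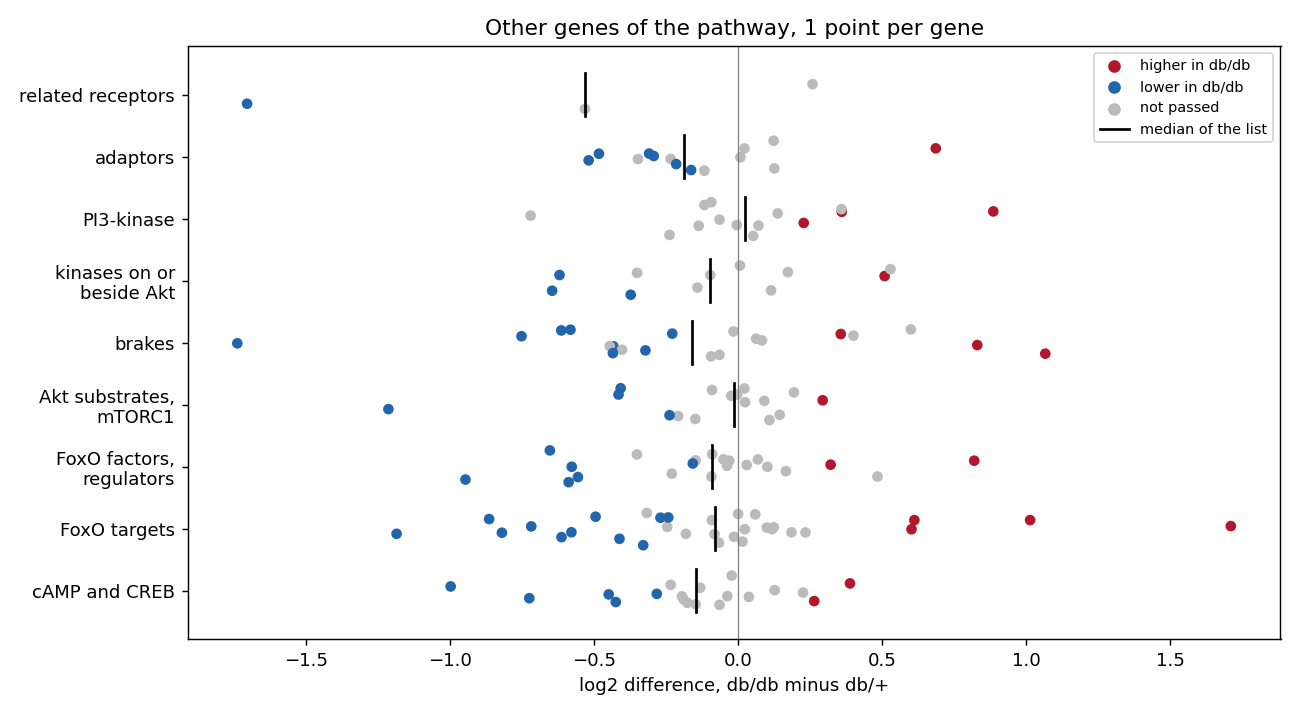
Log2 difference between db/db and db/+ islets for the 149 tested genes of the 9 pathway lists, 1 point per gene (red higher, blue lower, grey not passed at an adjusted p of 0.05), with the median of each list as a black line. Insrr and Ptpn2 lie farthest to the left and Mttp farthest to the right, and the list medians lie between -0.53 and 0.02.

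The tissue label was set against cell type markers. In the reference, the beta cell gene Iapp had a mean of 15.8 units and the alpha cell gene Gcg 15.5 units, while the probe listed for Ins1 lay at 0.044 units. Iapp had values on 3 db/db arrays and 0 db/+ arrays, and Gcg on 0 db/db arrays and 2 db/+ arrays, so that neither was compared between the groups. The beta cell genes Slc2a2 and Slc30a8 had values on 5 db/db arrays and 0 db/+ arrays and were not tested either. Of 12 tested beta cell markers 0 were higher and 5 lower in db/db islets, and of 6 alpha cell markers 3 and 1. Of 8 duct cell markers 3 were higher and 0 lower, and of 4 delta and PP cell markers 1 and 2. Macrophage and other leukocyte markers gave 3 and 0 of 9, and endothelial markers 1 and 2 of 9. Erythroid markers gave 2 and 1 of 6, and adipocyte markers 0 and 0 of 7. Of all genes on the array 16.9% were higher and 17.9% lower. Arrays held values for 22657 to 23365 probes each, and their number limits the precision.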

How the data were processed

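The labels state that islet total RNA was prepared with Trizol and that 100 ng went through 2 rounds of amplification, and every array had the islet sample in Cy5. The submitters' processing notes name Agilent Feature Extraction 8.5.1.1. Deposited intensities of both channels are, per the file headers, in arbitrary units, and most are rounded to 0.01. How the authors obtained the deposited p-value of each probe and array is not given here, nor are background subtraction, dye normalization, the reason for blank values and whether the reference held RNA of the same db/+ mice. The deposited log10 values were checked to be the log10 of Cy5 over Cy3 intensity within an array. Their median was 0 on all arrays, and genes were not centred.

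Ratios were put on the log2 scale without a pseudocount or other scaling. The 23138 probes with 3 or more values per group entered a limma fit (version 3.58.1, R 4.3.3, lmFit then eBayes, 2-sided, no covariate), with Benjamini-Hochberg adjustment over all of them and a threshold of 0.05. Exact permutation tests are 2-sided, and their p-values are unadjusted unless called adjusted. The adjusted ones use the Benjamini-Hochberg method over the 21954 probes with 10 values. Log2 Cy3 signals were tested likewise after quantile normalization. RefSeq gene names (GRCm38.p6) were assigned to 18956 probes through the symbol, 622 through the accession and 1775 through a synonym. The file's symbol was kept for 914 probes, and 1245 had none. List genes are represented by the probe with the brightest Cy3 signal. The fit was tested on simulated data.

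The members and lists were chosen with earlier results of these data known. Named are every probe of the 9 genes, up to 4 called genes of smallest adjusted p in each list, Igf1r, Pdpk1, Foxo4, Foxo6, Pik3cb and Pik3r2, and the 3 genes of highest Pearson correlation with Foxo3 and with Irs2. Some genes that this rule names are not reported here. Alternatives changed the normalization, the use of the reference, an intensity floor, filters, the choice of probe, the variance prior, array weights, a replicate block, marker covariates, the test and the threshold, or left out each array in turn. Whether a replicate is 1 mouse or a pool is not stated, and p-values measure the spread between these samples. Tables were handled with pandas 2.3.3 (Python 3.11.15) and version 1.17.8 of data.table, and figures were drawn with matplotlib 3.10.9.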

Additional observations from a re-analysis of the deposited data

Results flagged for a closer look

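Among 23 groups of 5 arrays with any spread, 4 held an array far from the other 4 by Dixon's criterion. On the brighter Pik3r1 probe these were db/db replicate 1, with a log2 ratio of -0.58, and db/+ replicate 2, with 0.32. On the dimmer Pik3r1 probe it was db/+ replicate 2, with 0.42, and for Akt2 it was db/+ replicate 1, with -0.58. In each case the other 4 ratios were exactly 0, and the channels of the outlying array differed by 1 rounding step of 0.01 units. With 4 identical ratios the criterion flags any other value, so its usual chance rate of about 1 in 20 groups does not apply here.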

How the results depend on the processing

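Of the probe calls, Akt1 kept its direction in every alternative (adjusted p from 0.000148 to 0.0643) and lost its call only after quantile normalization of the ratios (-0.14). Among the alternatives that tested it, the dimmer Foxo3 probe lost its call only with the stellate and fibroblast marker covariate (-0.38, adjusted p = 0.127). It had no result of its own without probes below the median intensity or in the fits with a single value per gene. The brighter Foxo3 probe missed the threshold after quantile normalization (-0.21), with the acinar covariate (-0.61), in the exact permutation test per probe (adjusted p = 0.0552) and at a threshold of 0.01 (-0.50), and turned to 0.44 with the stellate covariate. Without single arrays it ranged from -0.57 to -0.42. Irs2 (-0.46) passed without probes below the median intensity, and Foxo1 ranged from -0.47 to -0.22 without single arrays.

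Replicate numbers are shared by the groups. Once group means were taken off, same-numbered arrays had correlations of 0.061, 0.055, 0.10, 0.20 and 0.031 for replicates 1 to 5. Differently numbered arrays were not compared, so these values cannot decide on a pairing, and none was assumed in the main fit. With the replicate number as a block, Irs1 passed (0.17, adjusted p = 0.0377), so that 1 member probe was higher against 0 without the block, and 3 stayed lower. Igf1r (adjusted p = 0.00641) and Foxo4 (0.0378) also passed with it, and Bad lost its call (0.083).

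Quantile normalization left 1 member probe lower in place of 3, and 1830 higher and 1662 lower probes in place of 3678 and 3946, and the stellate covariate left 1 and 1034 higher and 1047 lower. The acinar covariate gave 2564 lower probes and a threshold of 0.01 gave 2474. Between 2 and 4 member probes were lower without single arrays. Pathway genes numbered 7 higher and 21 lower after quantile normalization, 10 and 27 with the acinar covariate, and 5 lower with the stellate covariate. That covariate also turned Crkl (0.0633), Sos1 (0.0789), Pdpk1 (0.363), Pik3ap1 (-0.0774) and Mapkap1 (-0.118), none of which then passed, and Pik3cb (-0.375, adjusted p = 0.0353), which passed there. Among genes with no call, Igf1r (0.816), Foxo4 (-0.69) and Pik3r2 (-0.146) changed sign with it and did not pass. Of 32 pathway calls that met the naming rule it ended 21 besides the 5 that it turned, quantile normalization 14, the acinar covariate 13, and loess within arrays 0. A threshold of 0.01 ended 8, the exact permutation test 6, the Cy5 signal without the reference 6 and the intensity floor 5. On the Cy5 signal these were Crkl (limma adjusted p = 0.0871), Pik3r3 (0.0819), Pik3ip1 (0.254), Mapkap1 (0.251), Pde3b (0.115) and Cdk2 (0.0704). The cause of these shifts was not tested. Dim probes limit Insr, Pik3r1 and Akt2, whose ratios move in rounding steps.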
